A study of Mus musculus with 4 samples.

Results

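The genes described here encode the mammalian chromatin remodelers of the SWI/SNF (BAF), CHD, ISWI and INO80 families, with HELLS and ADNP, in mouse embryonic stem (mES) cells in which the transcription factor ZBTB21 was targeted for degradation. The 53 members were taken from a list of gene names that was drawn up with earlier results of these data known, and all 53 had a row among the 55401 genes counted. RNA-seq libraries were made from degron cells (2 libraries), to which doxycycline was added for 24 h (1 µg/ml), followed by the auxin IAA for 24 h (500 µM), and from untreated cells (2 libraries). Cells of both groups carried the mAID-GFP tag at the C-terminus of both copies of Zbtb21 and OsTIR1, the plant F-box protein that sends tagged proteins to the proteasome once IAA is present, at Rosa26 under doxycycline control, and both were kept in medium that contained LIF, the GSK3 inhibitor CHIR99021 and the MEK inhibitor PD0325901. The comparison asks which transcripts change once ZBTB21, a zinc finger and BTB domain protein, is degraded. The tagged line came from selected clones. No library had the additions and intact ZBTB21, and it is not stated if doxycycline was given to the untreated cells, so loss of ZBTB21 and the effects of doxycycline, OsTIR1 and IAA cannot be told apart. The labels do not name the 2 libraries of a group as separate cultures, so p-values measure only how far these libraries vary, which may be technical.

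Chromatin remodelers are ATP-driven machines that slide, eject, assemble or exchange nucleosomes. Each complex is built around a SNF2-type ATPase: SMARCA4 (BRG1) or SMARCA2 (BRM) in BAF, CHD3 or CHD4 in NuRD, SMARCA5 (SNF2H) or SMARCA1 (SNF2L) in ISWI, and INO80, SRCAP or EP400 in the INO80 family. Other subunits guide the ATPase to its targets, and many are encoded by paralogs that exclude each other from one complex, so that the paralogs expressed set the composition of the complex. Embryonic stem cells are known for a BAF form (esBAF) that contains SMARCA4, SMARCC1, SMARCD1 and ACTL6A. Neurons exchange ACTL6A and the PHD finger subunits PHF10 and DPF2 for ACTL6B, DPF1 and DPF3.

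Of the 53 members, 51 passed the filter on low counts and were tested. Levels are given in counts scaled to library size (CPM) by the TMM method, and a gene was called where the Benjamini-Hochberg adjusted p of edgeR's quasi-likelihood test over 13916 genes was under 0.05. Values after ± are the SE of the log2 fold change (degron over untreated, n = 2 libraries a group), and coordinates are those of GENCODE release 21 genes (GRCm38). The number of members that rose was 15, 14 fell and 22 were not called. The called share was thus 56.9% of the members tested, beside 43.8% of all genes tested, of which 22.2% rose and 21.6% fell, and since the list was not independent of these data the difference was not tested. The median log2 fold change was 0.04 over the members and 0.01 over all genes tested. DESeq2, the tool of the study's own analysis, called 7 of the 51 members as higher and 8 as lower. Of all genes it tested, it called 10.8% as higher and 11.2% as lower. All 15 of these members had been called by edgeR in the same direction. The changes were small: 7 of the 51 members were called with a log2 fold change of at least 0.5 in size. Of all genes tested, 17.1% met both conditions. Against a minimum of 1.5-fold (edgeR's glmTreat) 0 members were called, beside 3.78% of all genes, with 1 member (Chd3) at an unadjusted p under 0.05. Without degron replicate 2 the calls numbered 8 higher and 7 lower. These 15 were also called with any other single library left out.

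**Figure D1:**
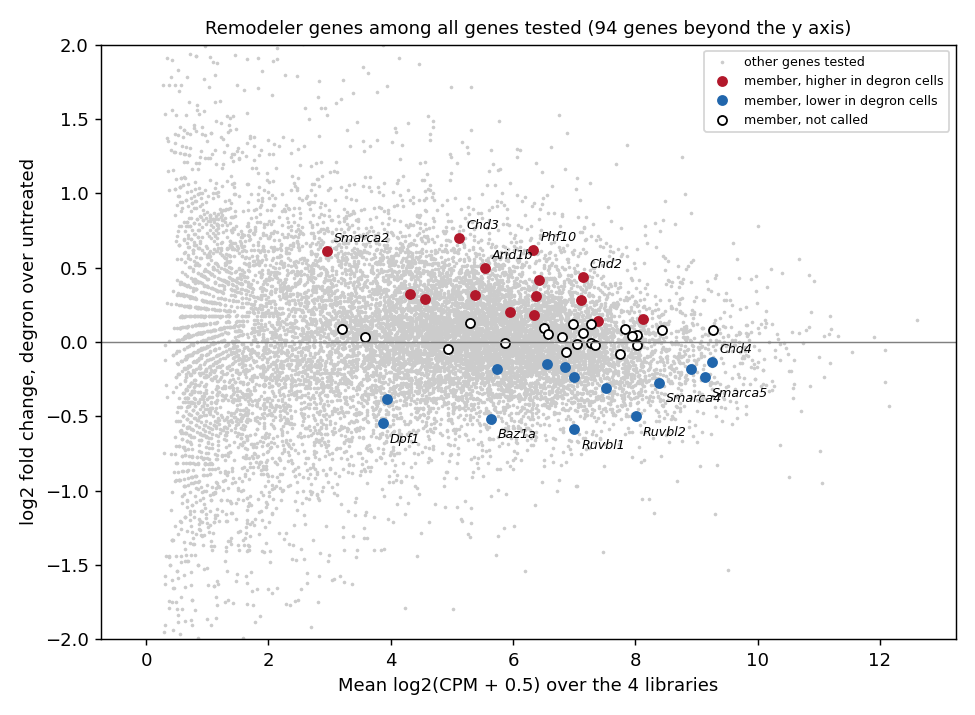
Log2 fold change (degron over untreated, y axis, limited to values between -2 and 2, which leaves out 94 genes) of each gene tested against its mean log2(CPM + 0.5) over the 4 libraries (x axis). The 51 members tested are drawn over all other genes (grey), as 15 higher (red), 14 lower (blue) and 22 not called (open), and they lie within the cloud of all genes at levels from about those of Smarca2 up to those of Baz2a.

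Between 8344408 and 9055498 counts were obtained from degron libraries and between 9431642 and 10604451 from untreated libraries. Members took 0.777% to 0.805% of the counts of each library. Across genes, which are not independent replicates, Pearson's r was 0.994 within either group, and 0.976 to 0.977 for a degron library against an untreated one. Zbtb21 mRNA, which the degron does not target, had 130 and 133 CPM in degron cells, against 61.7 and 56.9 CPM in untreated cells (log2 fold change 1.14 ± 0.06, SE, edgeR adjusted p = 2.66e-26), so RNA gives no measure of the protein's loss. Markers of embryonic stem cells summed to 5828 and 5825 CPM in degron cells and to 5469 and 5596 CPM in untreated cells, with Tfcp2l1, Klf2 and Esrrb higher (log2 fold changes 0.44, 0.40 and 0.16), Sox2 and Nanog lower (-0.31 and -0.22) and 3 of the 8 not called. Those of primitive endoderm summed to 16.5 and 16.4 CPM in degron cells and to 10.7 and 10.6 CPM in untreated cells, mostly from Gata4. Of the 8, 4 were tested, and only Gata4 was called by edgeR (log2 fold change 0.59) and 0 by DESeq2. Those of trophoblast summed to 153 and 154 CPM in degron cells and to 144 and 139 CPM in untreated cells, mostly from Tfap2c (not called) and Krt8. Of the 5 tested, Krt8 and Gata3 were higher by edgeR (log2 fold changes 0.24 and 1.26) and 0 by DESeq2. The part of these lists in the results was not tested. Fibroblast markers summed to at most 19.5 CPM in any library, with Lum, Dcn and Postn at no count, Pdgfrb higher and Thy1 lower (log2 fold changes 0.72 and -1.75). In such bulk libraries, fewer cells with a transcript and less of it per cell cannot be told apart.

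**Figure D2:**
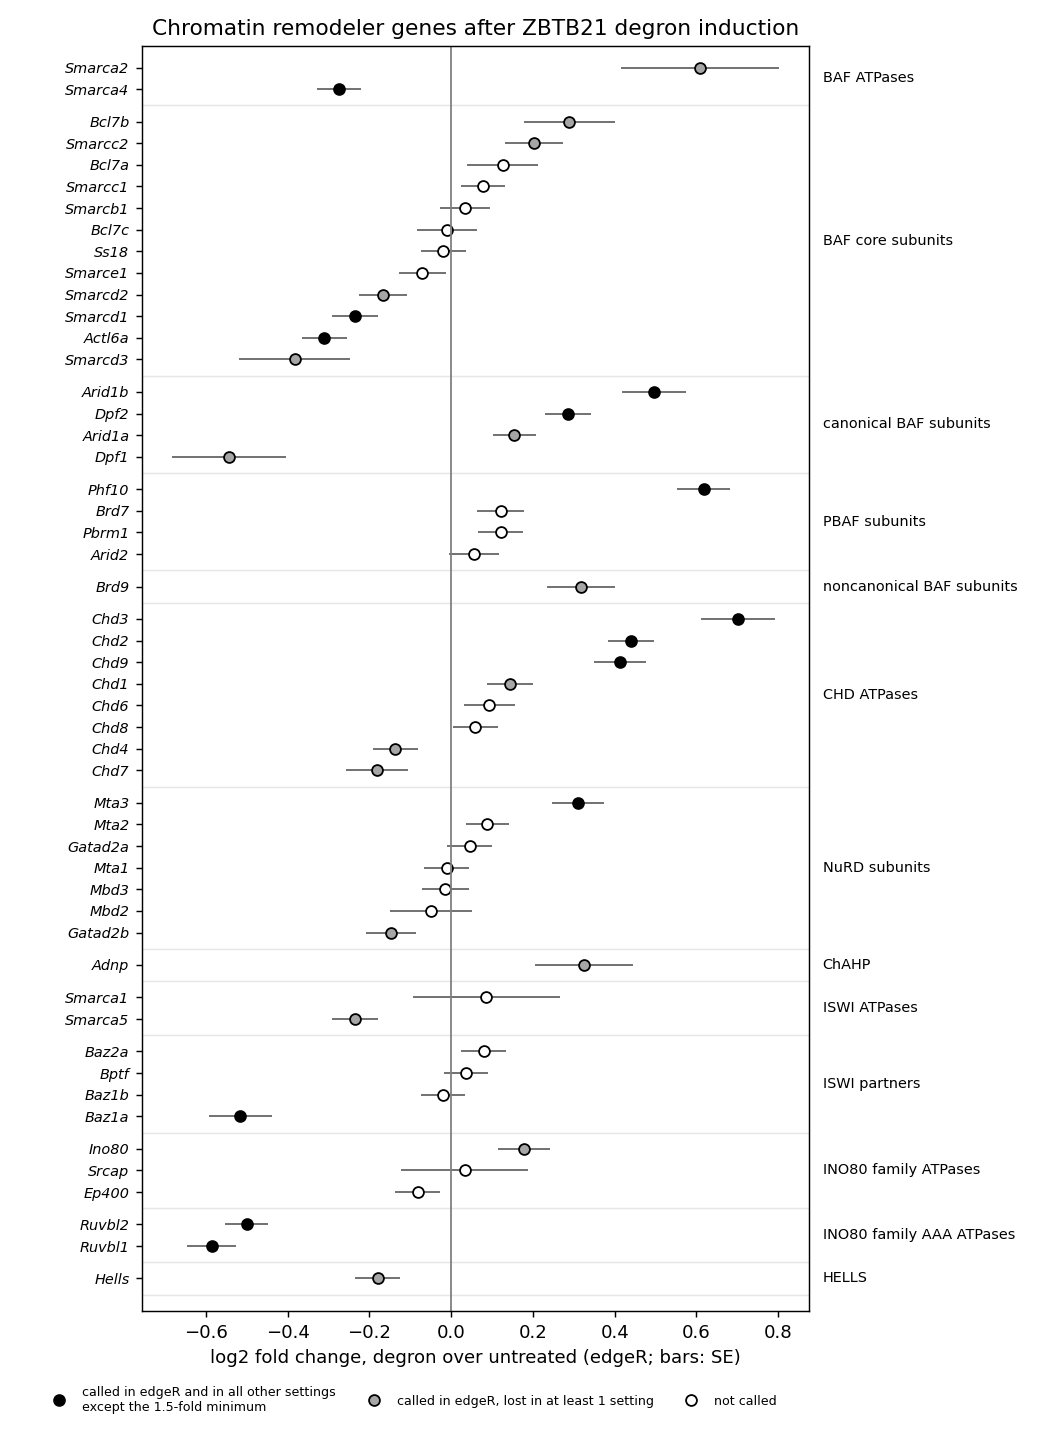
Log2 fold change of each of the 51 members tested (degron over untreated, x axis, bars are the SE of edgeR), grouped by complex. Black points are the 13 members called in edgeR and in every other setting except the 1.5-fold minimum, grey points the other called members and open points those not called. The largest rise is that of Chd3 and the largest fall that of Ruvbl1.

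The sequence before the transcription start is shown for 6 members, so that genes that moved together or apart can be set side by side: the 4 with the largest log2 fold change among called members with an entry in the promoter table (Phf10, Smarca2, Ruvbl1 and Dpf1), and the paralogs Smarca4 and Ruvbl2, which are set against Smarca2 and Ruvbl1 below. Each is the 250 bases before the RefSeq start (GRCm38.p6), 5′ to 3′ on the strand of the gene, and 42 of the 53 members had an entry. Capitals mark 5 motifs searched on both strands: CCAAT (bound by NF-Y), ACGTG (core of HIF and E-box sites, contained in CACGTG as well), GGGCGG (SP family), GGAAGT (ETS family) and TGATGCAA (ATF4 with a C/EBP partner).
Phf10 (chr17:14961261-14961510, minus strand): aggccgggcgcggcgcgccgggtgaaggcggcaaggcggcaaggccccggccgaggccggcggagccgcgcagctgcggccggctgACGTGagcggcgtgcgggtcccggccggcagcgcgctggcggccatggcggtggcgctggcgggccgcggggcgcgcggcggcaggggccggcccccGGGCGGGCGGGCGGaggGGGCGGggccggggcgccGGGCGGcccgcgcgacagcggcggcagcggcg
Smarca2 (chr19:26604910-26605159, plus strand): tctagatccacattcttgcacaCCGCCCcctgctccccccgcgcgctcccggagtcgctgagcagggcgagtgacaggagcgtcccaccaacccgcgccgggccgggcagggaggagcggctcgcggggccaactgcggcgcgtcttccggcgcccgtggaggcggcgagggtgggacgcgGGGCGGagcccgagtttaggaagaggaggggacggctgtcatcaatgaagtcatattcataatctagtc
Ruvbl1 (chr6:88465159-88465408, plus strand): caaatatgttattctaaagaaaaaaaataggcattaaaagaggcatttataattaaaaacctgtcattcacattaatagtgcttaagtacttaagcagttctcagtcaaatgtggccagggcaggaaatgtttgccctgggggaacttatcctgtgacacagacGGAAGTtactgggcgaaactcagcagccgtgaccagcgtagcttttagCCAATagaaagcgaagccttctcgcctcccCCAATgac
Dpf1 (chr7:29303755-29304004, plus strand): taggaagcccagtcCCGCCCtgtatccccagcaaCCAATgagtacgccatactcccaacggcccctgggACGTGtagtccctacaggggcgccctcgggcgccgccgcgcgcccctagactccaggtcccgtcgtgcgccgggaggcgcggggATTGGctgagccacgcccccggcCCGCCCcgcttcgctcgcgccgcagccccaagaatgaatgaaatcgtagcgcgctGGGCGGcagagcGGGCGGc
Smarca4 (chr9:21615919-21616168, plus strand): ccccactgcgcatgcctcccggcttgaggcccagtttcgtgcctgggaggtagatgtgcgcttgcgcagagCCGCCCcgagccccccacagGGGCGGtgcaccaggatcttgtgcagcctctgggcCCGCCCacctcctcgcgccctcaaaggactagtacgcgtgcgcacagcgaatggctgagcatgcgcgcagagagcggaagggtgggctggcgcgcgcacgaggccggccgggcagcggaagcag
Ruvbl2 (chr7:45434465-45434714, minus strand): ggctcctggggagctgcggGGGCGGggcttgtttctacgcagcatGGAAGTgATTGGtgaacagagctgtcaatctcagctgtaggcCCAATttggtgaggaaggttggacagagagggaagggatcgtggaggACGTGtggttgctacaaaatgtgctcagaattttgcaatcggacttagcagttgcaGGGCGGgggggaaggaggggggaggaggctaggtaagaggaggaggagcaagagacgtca
Matches to CCAAT were found in Ruvbl1, Ruvbl2 and Dpf1, 2 in each window, and in 33.8% of all 32851 windows of this kind. GGGCGG was found in every window shown other than that of Ruvbl1, with 5 matches in Phf10, 3 of them overlapping each other, and in 32.7% of all windows. GGAAGT was found once in Ruvbl1 and once in Ruvbl2 (19.7% of all windows) and ACGTG once in Phf10, once in Dpf1 and once in Ruvbl2 (16.6%). TGATGCAA was in none of the 6 and in 0.791% of all windows. The windows of Ruvbl1 and Ruvbl2 differed in base composition, with 42.4% G and C in Ruvbl1 and 56.8% in Ruvbl2. Those of Smarca4 (70.8%) and Smarca2 (68.4%) were close. Against GENCODE release 21, 245 of the 250 bases of the Ruvbl2 window, 110 of that of Smarca2, 54 of that of Dpf1 and 13 of that of Phf10 lie in annotated exons of the same gene, and 0 of those of Ruvbl1 and Smarca4. Matches are descriptions of sequence, not evidence of binding.

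The BAF ATPases moved in opposite directions. Smarca4 (chr9:21616169-21704230, plus strand), the ATPase of esBAF, had 313 and 294 CPM in degron cells, against 372 and 362 CPM in untreated cells. Both degron libraries lay below both untreated libraries, and the fall (log2 fold change -0.27 ± 0.05, edgeR adjusted p = 1.97e-05) was also called by DESeq2 (adjusted p = 3.19e-04). Smarca2 (chr19:26605050-26778322, plus strand), the alternative ATPase, had 8.40 and 9.67 CPM in degron cells, against 6.34 and 5.42 CPM in untreated cells, which rest on 77 and 81 counts in degron libraries and 67 and 50 counts in untreated libraries. Again the groups did not overlap, and the log2 fold change was larger than that of Smarca4 in size but less certain (log2 fold change 0.61 ± 0.19, edgeR adjusted p = 0.00768). Its call was lost by DESeq2 (adjusted p = 0.179) and with edgeR without untreated replicate 2 (0.0544) or without degron replicate 2 (0.0986). Per exonic length, Smarca2 made up 1.20% and 1.47% of the RNA of the pair in degron cells and 0.767% and 0.676% in untreated cells. On this measure Smarca4 remained at over 98% in every library. The exonic length is 14269 bp for Smarca2 and 6475 bp for Smarca4, and without division by it the share of Smarca2 is larger. The CPM of Smarca4 was far above that of Smarca2 in every library all the same.

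Among the 13 BAF core subunits, 12 were tested, of which 2 rose, 4 fell and 6 were not called, a called share of 50% beside the 43.8% of all genes tested. In each count of subunits here and below, the shares over all genes tested are 22.2% higher and 21.6% lower, and groups of so few genes are not set apart from them. Actl6a (chr3:32706298-32726973, plus strand), the actin-like subunit of stem and progenitor cells, which is also part of INO80 and TIP60, had 161 and 167 CPM in degron cells, against 201 and 206 CPM in untreated cells. The groups were well apart and the gene fell (log2 fold change -0.31 ± 0.05, edgeR adjusted p = 2.03e-06), also with each single library left out. On the other strand Mrpl47 overlaps 11.6% of its exonic length and was not called (log2 fold change -0.04 ± 0.08, edgeR adjusted p = 0.678). The neuronal counterpart Actl6b had no count in 3 libraries and 2 counts in degron replicate 2. The 3 paralogs that encode the SMARCD (BAF60) subunit, through which transcription factors contact the complex, fell together. Smarcd3 (chr5:24590818-24624411, minus strand), the form best known from heart and neurons, had 13.3 and 12.5 CPM in degron cells, against 16.9 and 16.9 CPM in untreated cells (log2 fold change -0.38 ± 0.14, edgeR adjusted p = 0.0168). Of its exonic length 48.2% overlaps Chpf2 on the other strand, which rose (log2 fold change 0.53 ± 0.18, SE, edgeR adjusted p = 0.0108), and the strand setting of the counting is not given in the sources used here. Smarcd1, the esBAF form (log2 fold change -0.23 ± 0.06, edgeR adjusted p = 4.32e-04), was called in every setting but the 1.5-fold minimum. Smarcd2 (log2 fold change -0.17 ± 0.06, edgeR adjusted p = 0.0139) was not called by DESeq2 (adjusted p = 0.187), nor by edgeR without degron replicate 1 (0.161) or degron replicate 2 (0.0766), and Smarcd3 not by DESeq2 (0.242) nor without degron replicate 2 (0.111).

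The 2 core subunits that rose were Smarcc2 (log2 fold change 0.20 ± 0.07, edgeR adjusted p = 0.0148), a scaffold subunit that neural cells use more than stem cells, and Bcl7b (log2 fold change 0.29 ± 0.11, edgeR adjusted p = 0.0286), a small accessory subunit. Neither was called by DESeq2 (adjusted p = 0.241 and 0.302). With edgeR, Smarcc2 was lost without untreated replicate 2 (adjusted p = 0.116) or degron replicate 2 (0.163), and Bcl7b without either untreated library (0.0576 without replicate 1 and 0.0714 without replicate 2) or without degron replicate 2 (0.375). The esBAF scaffold Smarcc1 and Smarcb1, Smarce1, Bcl7a, Bcl7c and Ss18 were not called, with log2 fold changes of -0.07 to 0.13. The share of Smarcc2 in the scaffold RNA per exonic length was 20.1% and 21.2% in degron cells, against 19.7% and 18.8% in untreated cells.

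Of the 9 tested subunits that tell canonical BAF, PBAF and noncanonical BAF apart, 5 rose, 1 fell and 3 were not called. In canonical BAF, Arid1b (chr17:4994332-5347656, plus strand), 1 of the AT-rich interaction domain proteins that target the complex, had 55.5 and 53.9 CPM in degron cells, against 40.0 and 37.5 CPM in untreated cells. It rose clear of the spread between replicates (log2 fold change 0.50 ± 0.08, edgeR adjusted p = 2.04e-07), and without any single library its adjusted p was at most 4.48e-05. Its paralog Arid1a rose less (log2 fold change 0.15 ± 0.05, edgeR adjusted p = 0.0137), and that call was lost by DESeq2 (adjusted p = 0.0924), after removal of the trend on exonic length (0.41) and without degron replicate 1 (0.225) or degron replicate 2 (0.0521). Arid1b was 14.5% and 14.6% of the RNA of this pair per exonic length in degron cells, against 12.1% and 11.5% in untreated cells.

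The PHD finger subunits, which read histone tails, parted. Phf10 (chr17:14945009-14961273, minus strand), which marks PBAF and is known as BAF45A of neural progenitors, had 94.9 and 103 CPM in degron cells, against 61.2 and 67.9 CPM in untreated cells. This was the rise with the smallest p of any member (log2 fold change 0.62 ± 0.07, edgeR adjusted p = 1.15e-12, DESeq2 adjusted p = 8.03e-07), and the groups were far apart. On the other strand 1600012H06Rik overlaps 9.56% of its exonic length and was not called (log2 fold change 0.10 ± 0.10, edgeR adjusted p = 0.432). Dpf2, the form found in most tissues, rose as well (log2 fold change 0.29 ± 0.06, edgeR adjusted p = 1.89e-05), while Dpf1 (chr7:29303951-29318243, plus strand), the neuronal form, had 12.0 and 11.3 CPM in degron cells, against 16.9 and 17.2 CPM in untreated cells. Dpf1 fell (log2 fold change -0.54 ± 0.14, edgeR adjusted p = 8.64e-04), with both degron libraries below both untreated ones and at most 178 counts in a library, and the fall was called with each library left out but not by DESeq2 (adjusted p = 0.0784). Dpf3 was too low to be tested, with 13 and 7 counts in degron libraries and 7 and 6 in untreated libraries. Neural marker genes summed to 154 and 148 CPM in degron cells, against 198 and 189 CPM in untreated cells. Of the 5 tested, 4 fell (Nes, Map2, Tubb3 and Ncam1), beside 21.6% of all genes tested, and DESeq2 did not call Tubb3 (adjusted p = 0.0763). Sox1 had the other sign and was not called (9.05 and 7.52 CPM in degron cells, 6.44 and 6.94 CPM in untreated cells, log2 fold change 0.32, edgeR adjusted p = 0.18). Neurog2 and Dcx had no count. The part of neural markers in the lower Dpf1 and Smarcd3 was not tested.

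The other 3 PBAF subunits were not called. Pbrm1 (polybromo, log2 fold change 0.12 ± 0.06, edgeR adjusted p = 0.0691) and Brd7 (log2 fold change 0.12 ± 0.06, edgeR adjusted p = 0.0798), both with acetyl-lysine-binding bromodomains, were nearest to the threshold, and Arid2 had a log2 fold change of 0.06, which was -0.036 with the length trend removed. All 4 PBAF genes had non-overlapping groups, as did 70.6% of all genes tested. Brd9 (chr13:73937811-73960895, plus strand), the bromodomain subunit of noncanonical BAF, had 46.3 and 46.0 CPM in degron cells, against 39.1 and 34.7 CPM in untreated cells. It rose (log2 fold change 0.32 ± 0.08, edgeR adjusted p = 0.00113), also with any single library left out, but not by DESeq2 (adjusted p = 0.0995).

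**Figure D3:**
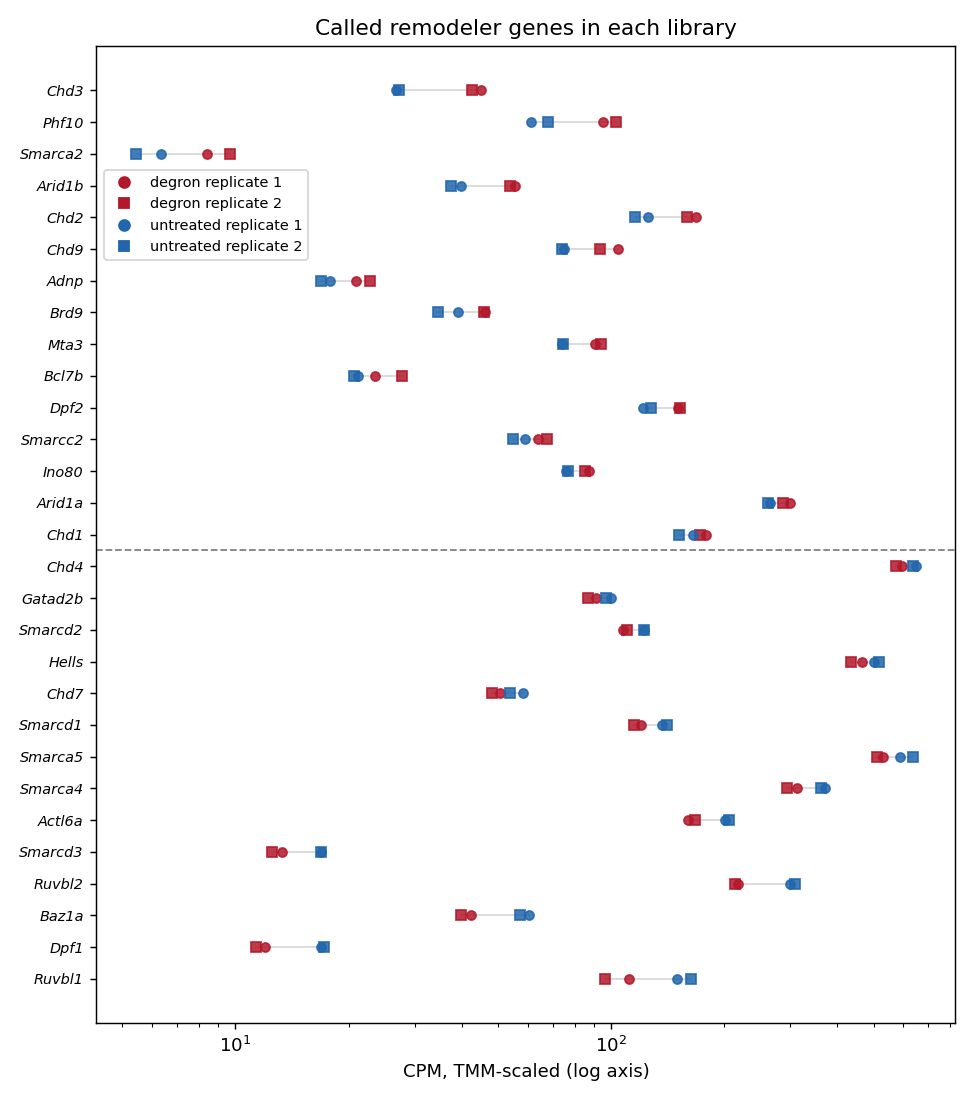
TMM-scaled CPM (x axis, log scale) of the 29 called members in each library, degron in red and untreated in blue, circles for replicate 1 and squares for replicate 2, ordered by log2 fold change with the 15 that rose above the dashed line. Both red points lie on one side of both blue points for each of the 29, as in 6061 of the 6093 genes called among all genes tested, with Chd1 and Gatad2b among the narrowest gaps and Chd3 among the widest.

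Of the 8 CHD ATPases, 4 rose and 2 fell (75% called, beside 43.8% of all genes tested). Chd3 (chr11:69343273-69369406, minus strand), a NuRD ATPase known from neuronal development, had 45.1 and 42.5 CPM in degron cells, against 26.7 and 27.2 CPM in untreated cells. The gap between the groups was many times the spread within them, and the rise was the largest of all members (log2 fold change 0.70 ± 0.09, edgeR adjusted p = 5.89e-10, DESeq2 adjusted p = 7.74e-05). Chd4, the main NuRD ATPase of stem cells, had a change of the other sign and small (log2 fold change -0.14 ± 0.05, edgeR adjusted p = 0.0364). That call was lost by DESeq2 (adjusted p = 0.0551), with library sizes alone (0.0778) and without untreated replicate 1 (0.0638), degron replicate 1 (0.141) or degron replicate 2 (0.372). Per exonic length, Chd3 made up 6.69% and 6.59% of the RNA of the pair in degron cells, against 3.75% and 3.91% in untreated cells.

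Chd2 (chr7:73426638-73541830, minus strand), which acts at active genes in transcription and histone H3.3 deposition, had 168 and 159.7 CPM in degron cells, against 125 and 116 CPM in untreated cells. Both degron libraries were higher (log2 fold change 0.44 ± 0.06, edgeR adjusted p = 7.34e-10). A transcript annotated on the same strand, 1810026B05Rik, overlaps 18.4% of its exonic length and was not called (log2 fold change -0.06 ± 0.12, SE, edgeR adjusted p = 0.72). Its paralog Chd1, which binds trimethylated H3K4 and keeps stem cell chromatin open, rose less (log2 fold change 0.14 ± 0.06, edgeR adjusted p = 0.0288). The call of Chd1 was lost by DESeq2 (adjusted p = 0.227), after removal of the length trend (0.327) and without untreated replicate 2 (0.267), degron replicate 1 (0.24) or degron replicate 2 (0.0799).

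In the CHD6 to CHD9 group, large proteins found at enhancers and promoters, Chd9 (chr8:90828352-91054516, plus strand) had 105 and 93.4 CPM in degron cells, against 74.8 and 73.9 CPM in untreated cells. It rose in both libraries (log2 fold change 0.41 ± 0.06, edgeR adjusted p = 1.11e-07). Chd7, the gene mutated in CHARGE syndrome, fell (log2 fold change -0.18 ± 0.07, edgeR adjusted p = 0.0424), close to the threshold and lost by DESeq2 (adjusted p = 0.35), limma-voom (0.0509), edgeR scaled by library sizes alone (0.103), edgeR on unfiltered genes (0.114), and without untreated replicate 1 (0.265), degron replicate 1 (0.0845) or degron replicate 2 (0.275). Chd6 (log2 fold change 0.09 ± 0.06, edgeR adjusted p = 0.231) and Chd8 (log2 fold change 0.06 ± 0.06, edgeR adjusted p = 0.412), a gene mutated in autism, were not called. Per exonic length, Chd9 was 20.8% and 19.0% and Chd7 16.9% and 16.4% of the family's RNA in degron cells, against 15.5% and 16.3% for Chd9 and 20.3% and 19.9% for Chd7 in untreated cells. The exonic length is 23148 bp for Chd9 and 13786 bp for Chd7, and without division by it the CPM of Chd9 was above that of Chd7 in every library.

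NuRD joins CHD3 or CHD4 to histone deacetylases through the MTA, MBD and GATAD2 subunits. Of the 7 subunits listed, 1 rose, 1 fell and 5 were not called, a called share of 28.6% beside the 43.8% of all genes tested. Mta3 (chr17:83706163-83821516, plus strand), the least abundant per exonic length of the 3 scaffold paralogs, had 90.9 and 93.7 CPM in degron cells, against 74.2 and 74.7 CPM in untreated cells. It was higher in both degron libraries (log2 fold change 0.31 ± 0.06, edgeR adjusted p = 3.63e-05) and made up 13.6% and 14.4% of the MTA RNA per exonic length in degron cells, against 11.9% in each untreated library. Gatad2b, which bridges MBD proteins to the ATPase, fell close to the threshold (log2 fold change -0.15 ± 0.06, edgeR adjusted p = 0.0422), and was lost by DESeq2 (adjusted p = 0.31), with library sizes alone (0.117), with no low-count filter (0.12) and without untreated replicate 1 (0.123), degron replicate 1 (0.0921) or degron replicate 2 (0.328). Mta1, Mta2, Gatad2a, Mbd2, which binds methylated DNA, and Mbd3, which is needed for NuRD function in mES cells, had log2 fold changes of -0.05 to 0.09.

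Adnp (chr2:168180986-168207112, minus strand), the zinc finger protein that forms the ChAHP complex with CHD4 and HP1, had 20.9 and 22.8 CPM in degron cells, against 17.9 and 16.9 CPM in untreated cells. The groups did not overlap (log2 fold change 0.33 ± 0.12, edgeR adjusted p = 0.0211). The call was lost by DESeq2 (adjusted p = 0.268) and without untreated replicate 2 (0.0799) or degron replicate 2 (0.166). Of its exonic length, 82.1% is shared with the gene model Gm20716 on the same strand (GENCODE release 21), so most of its reads may have gone uncounted and its level is uncertain.

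**Figure D4:**
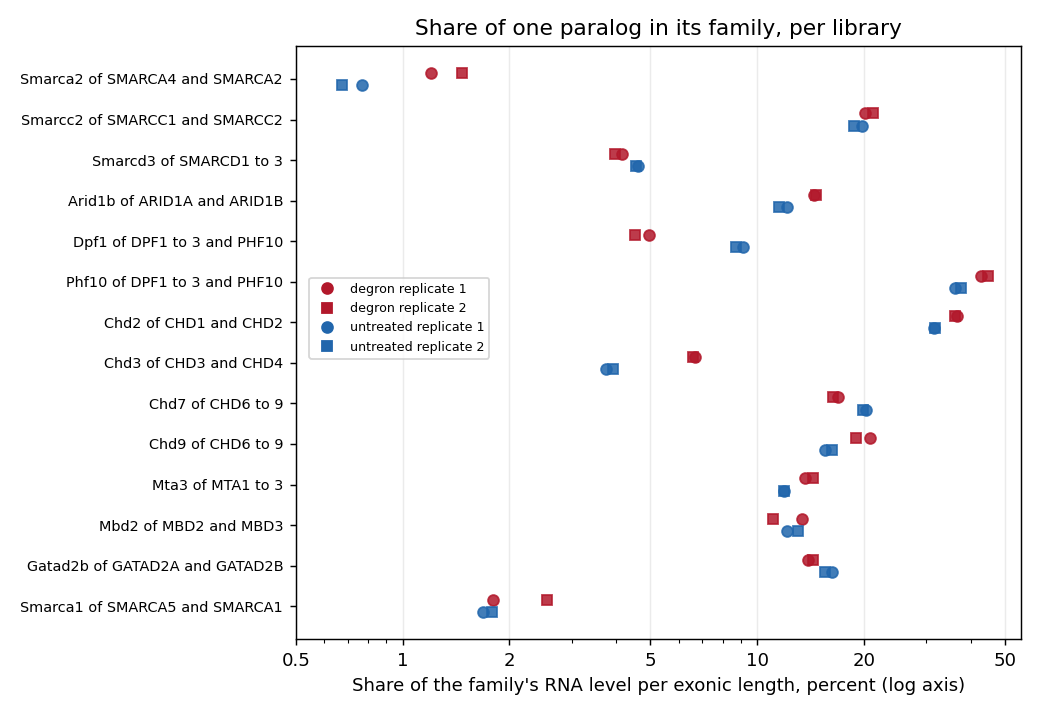
Share of 14 paralogs in the summed RNA level of their family (CPM per kilobase of exonic length, percent, log scale) in each library, degron in red above untreated in blue, circles for replicate 1 and squares for replicate 2. Smarca2, Arid1b, Phf10, Chd2, Chd3, Chd9 and Mta3 lie to the right in both degron libraries. So do Smarcc2 and Smarca1, by narrow gaps. Dpf1, Chd7, Smarcd3 and Gatad2b lie to the left, and Mbd2 overlaps.

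These shares are descriptions and were not tested. Within the PHD finger family, Dpf1 was 4.95% and 4.52% of the RNA per exonic length in degron cells, against 9.11% and 8.70% in untreated cells, and Phf10 was 42.8% and 44.8% in degron cells, against 36.2% and 37.5% in untreated cells. In the ATPase pairs of BAF, NuRD and ISWI the same paralog was in excess in both groups.

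ISWI remodelers space nucleosomes into regular arrays. Smarca5 (chr8:80698507-80739497, minus strand), the main ISWI ATPase of stem cells, had 529 and 509 CPM in degron cells, against 587 and 636 CPM in untreated cells. It was lower in both degron libraries (log2 fold change -0.24 ± 0.06, edgeR adjusted p = 3.21e-04, DESeq2 adjusted p = 0.00133), a call that was lost by a small margin without degron replicate 2 (adjusted p = 0.0517). Smarca1, its neural paralog, was low and not called (log2 fold change 0.09 ± 0.18, edgeR adjusted p = 0.73), at 1.80% and 2.56% of the RNA of the pair per exonic length in degron cells and 1.69% and 1.79% in untreated cells. Of the 4 partners, Baz1a (chr12:54892989-55014348, minus strand), the ACF1 subunit of the nucleosome-spacing ACF and CHRAC complexes, had 42.3 and 39.9 CPM in degron cells, against 60.3 and 57.2 CPM in untreated cells. It fell well beyond the replicate spread (log2 fold change -0.52 ± 0.08, edgeR adjusted p = 4.40e-08), also by DESeq2 (adjusted p = 8.60e-04). Baz1b (WSTF), Baz2a (TIP5, which silences ribosomal DNA) and Bptf (the large subunit of NURF) were not called, with log2 fold changes of -0.02 to 0.08.

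The INO80 family remodels nucleosomes that contain the histone variant H2A.Z, and its members share the AAA ATPases RUVBL1 and RUVBL2, which form 1 ring and also assist the assembly of snoRNPs, telomerase and PIKK kinases. Ruvbl1 (chr6:88465409-88497572, plus strand) had 111 and 96.6 CPM in degron cells, against 150.2 and 163 CPM in untreated cells. Ruvbl2 (chr7:45421760-45438096, minus strand) had 218 and 213 CPM in degron cells, against 300.0 and 309.6 CPM in untreated cells. Every degron library lay far below every untreated library for both, and the falls of Ruvbl1 (log2 fold change -0.59 ± 0.06, edgeR adjusted p = 2.33e-13) and Ruvbl2 (log2 fold change -0.50 ± 0.05, edgeR adjusted p = 1.36e-12) were those with the smallest p among members that fell, also by DESeq2 (adjusted p = 4.25e-08 and 2.20e-11). Gys1 overlaps 10.7% of the exonic length of Ruvbl2 on the other strand and rose (log2 fold change 0.42 ± 0.06, SE, edgeR adjusted p = 1.39e-08).

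None of the 3 SNF2 ATPases that work with this ring was called as lower. Ino80 (chr2:119373042-119477687, minus strand) had 87.3 and 85.3 CPM in degron cells, against 75.8 and 76.7 CPM in untreated cells. It was slightly higher in both degron libraries (log2 fold change 0.18 ± 0.06, edgeR adjusted p = 0.0177). That call was lost by DESeq2 (adjusted p = 0.25), after removal of the length trend (0.107) and without untreated replicate 1 (0.0735), degron replicate 1 (0.149) or degron replicate 2 (0.0654). Neither Srcap, which deposits H2A.Z (log2 fold change 0.03 ± 0.15, edgeR adjusted p = 0.885), nor Ep400, the ATPase of the TIP60 acetyltransferase complex (log2 fold change -0.08 ± 0.05, edgeR adjusted p = 0.228), was called. The value of Srcap rests on at most 128 counts in a library, and 61.7% of its exonic length is shared with the gene model Gm42715 on the same strand (GENCODE release 21).

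Hells (chr19:38930915-38971051, plus strand), an SNF2-type ATPase that is needed for DNA methylation of repeats and is expressed in dividing cells, had 464 and 434 CPM in degron cells, against 501 and 517 CPM in untreated cells. Both degron libraries were lower, by little (log2 fold change -0.18 ± 0.05, edgeR adjusted p = 0.00516, DESeq2 adjusted p = 0.0185), and without degron replicate 2 the call was lost (adjusted p = 0.239). Its partner Cdca7, the zinc finger protein that activates it, fell further (log2 fold change -0.47 ± 0.05, edgeR adjusted p = 1.84e-11). So did Cdca7l, a paralog of Cdca7 (log2 fold change -0.98 ± 0.11, edgeR adjusted p = 2.96e-11). On the other strand Dnah11 overlaps 19.7% of the exonic length of Cdca7l. Over the same libraries S-phase genes summed to 4932 and 4903 CPM in degron cells, against 5989 and 6182 CPM in untreated cells. Of these 16 genes, 14 fell, beside 21.6% of all genes tested. DESeq2 called 12 of the 16 as lower, beside 11.2% of the genes it tested. The part of S-phase genes in the fall of Hells, Cdca7 and Cdca7l was not tested.

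A list of 61 other remodeler subunits and SNF2 ATPases was set beside the members. All 61 were tested, 11 rose, 22 fell and 28 were not called (54.1% called, beside 43.8% of all genes tested, of which 22.2% rose and 21.6% fell), with a median log2 fold change of -0.06. DESeq2 called 4 as higher and 7 as lower, beside 10.8% and 11.2% of the genes it tested. Without degron replicate 1 the falls numbered 14, and without degron replicate 2 there were 7 rises and 12 falls. Besides Cdca7 and Cdca7l, the smallest p-values belonged to Rbbp7, a histone chaperone of NuRD and PRC2 (log2 fold change -0.39 ± 0.05, edgeR adjusted p = 5.50e-09), Uchl5, the deubiquitinase of INO80 (log2 fold change -0.44 ± 0.07, edgeR adjusted p = 8.84e-08), Trrap, the scaffold of TIP60 (log2 fold change 0.29 ± 0.05, edgeR adjusted p = 7.50e-06), and Epc1, a TIP60 subunit (log2 fold change 0.56 ± 0.11, edgeR adjusted p = 9.14e-06). Of the accessory subunits of INO80, SRCAP and TIP60, 5 of 27 rose and 11 of 27 fell. Among other SNF2 ATPases 2 of 16 rose and 6 of 16 fell, among further NuRD subunits 1 of 7 rose and 3 of 7 fell, among further BAF subunits 2 of 3 rose, and among further ISWI partners 1 of 6 rose.

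The members are long genes, with a median exonic length of 7205 bp, against 4162.5 bp over all genes tested. Spearman's rho between log2 fold change and exonic length was 0.274 over the 51 members and 0.143 over 13908 genes, a description across genes that share the same 4 libraries. Once each library's trend on length was removed, 12 members were called as higher and 16 as lower, and the median of the members was -0.035. The 3 rises lost in this setting were those of Arid1a, Chd1 and Ino80. Among the falls gained was that of Baz1b (log2 fold change -0.13, edgeR adjusted p = 0.0404).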

How the data were processed

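RNA was extracted and sequenced from 4 libraries of ZBTB21-degron mES cells. According to the sample labels the libraries were poly(A)-selected, while total RNA-seq is named in the methods, and the strand setting is not given in the sources used here. The deposited file holds raw counts for each gene. To make it, as the submitters' processing notes and the methods give, the authors trimmed reads (cutadapt 2.6), mapped them to mm10 (STAR 2.7.6a), removed PCR duplicates and counted reads on GENCODE release 25 genes (featureCounts 1.6.3). Duplicate removal can lower the counts of very abundant genes.

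Symbols, coordinates (GRCm38) and exonic lengths came from GENCODE release 21, which matched 55141 of 55401 IDs without version and left 260 unmatched. All columns were matched to samples by condition and replicate number, and 0 were left over. The members and lists were chosen with earlier results of these data known. Differences were tested with edgeR 4.0.16 in R 4.3.3 (genes kept by filterByExpr, TMM scaling, group as the only term, quasi-likelihood F test) over 13916 genes, Benjamini-Hochberg threshold 0.05, and the SE is the log2 fold change divided by the square root of F. The common biological coefficient of variation was 3.31%. Libraries of 1 group differed from each other beyond sampling noise (chi-square per gene 1.54 for degron and 1.98 for untreated, against 15.4 to 16.1 between groups). CPM uses TMM-scaled totals, except in sums of marker genes, which use unscaled totals. Per-length levels are CPM divided by exonic length, which counts each base in any annotated exon of the gene. Shares of paralogs depend on this length.

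Alternatives were DESeq2 1.42.0, limma-voom (limma 3.58.1), other scalings (RLE, upper quartile, library sizes alone), a replicate block, no low-count filter or a minimum of 1 CPM in each group mean, protein-coding genes only, removal of each library's trend on exonic length or GC content (spline with 5 degrees of freedom), a 1.5-fold minimum, and each library left out, where a lone library was assumed to vary like the other group. Of the 26808 genes with a count, 13513 have no adjusted p in DESeq2. The script that fits edgeR was checked on simulated data. Far fewer genes were changed there than were called here, so the check is no measure of how many of these calls are right.

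Values are given per library for called members with a log2 fold change of at least 0.3 in size and for the called member with the smallest p in each group of subunits. ATPases are named whether called or not, as are uncalled members with an adjusted p of 0.05 to 0.1, and the 6 other subunits with the smallest p.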

Additional observations from a re-analysis of the deposited data

How the results depend on the processing

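None of the 29 called members changed sign under any alternative, and 13 (7 higher and 6 lower) were called in all 15 alternatives other than the 1.5-fold minimum: Arid1b, Dpf2, Phf10, Chd2, Chd3, Chd9 and Mta3 were higher and Smarca4, Smarcd1, Actl6a, Baz1a, Ruvbl1 and Ruvbl2 lower. DESeq2 called 7 members as higher and 8 as lower, 1440 and 1484 of all genes (edgeR 3087 and 3006), and 4 and 7 of the other subunits. Against the 1.5-fold minimum these counts were 0 and 0, 287 and 239, and 0 and 1. With each library left out, 8 to 14 members were higher and 7 to 15 lower, 2357 to 2757 of all genes were higher and 2156 to 2810 lower, 7 to 9 other subunits were higher and 12 to 19 lower, and the median of the members was 0.033 to 0.062 (0.062 without degron replicate 2). With library sizes alone it was 0.075, with 17 members higher and 11 lower, and with the length trend removed -0.035.

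Some uncalled members changed sign. With the length trend removed, log2 fold changes were -0.035 for Smarcb1, -0.036 for Arid2, -0.040 for Chd6, -0.064 for Chd8, 0.045 for Mbd3, -0.013 for Baz2a, -0.075 for Bptf and -0.086 for Srcap. With library sizes alone they were 0.019 for Bcl7c, 0.010 for Ss18, 0.019 for Mta1, 0.016 for Mbd3 and 0.010 for Baz1b. With each library left out, they ranged from -0.073 to 0.13 for Smarcb1, from -0.073 to 0.042 for Bcl7c, from -0.025 to 0.0081 for Mta1, from -0.18 to 0.078 for Mbd2, from -0.088 to 0.051 for Mbd3, from -0.021 to 0.11 for Gatad2a, from -0.15 to 0.31 for Smarca1, from -0.067 to 0.033 for Baz1b, from -0.0060 to 0.076 for Bptf and from -0.093 to 0.15 for Srcap.

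Same-numbered libraries of the 2 groups deviated from their group means with a correlation of 0.115 over 9937 genes, and with only 2 pairs the replicate numbers are not taken to pair the libraries. With the replicate block, edgeR called 18 members as higher and 14 as lower, 3369 and 3276 of all genes, and 11 and 24 of the other subunits.

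The cause of these differences was not tested. Counts were low and SEs largest for Smarca2, Smarca1, Dpf1, Smarcd3, Adnp and Srcap, at 0.12 or more once rounded. For Adnp and Srcap, exons shared with a gene model on the same strand may have lowered the counts, which was not tested. Actl6b and Dpf3 were too low to be tested.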
